A study of Homo sapiens with 15 samples.

Results

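The POU family comprises transcription factors that bind DNA through a POU-specific domain and a POU homeodomain, and the loci of 9 of them were examined in ATAC-seq peak lists of SETD2 wild-type, knockout and rescue renal epithelial cells. The members were listed by name (POU2F1, POU2F2, POU2F3, POU3F1, POU3F2, POU3F3, POU4F1, POU5F1 and POU6F1) and make up 9 of the 20033 protein-coding genes of GENCODE release 44. Each locus was the gene body with 10 kb on each side, in hg38 coordinates counted from 1. The question was which of these genes had accessible chromatin at its start in cells in which regions holding the octamer ATGCAAAT gained a peak.

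ATAC-seq marks open chromatin by the places where a transposase can cut. It was performed on RPTEC, an hTERT-immortalized line of human renal proximal tubule epithelium that was grown under G418 in every group. The 15 libraries fall into 5 groups of 3. WT cells carry intact SETD2, the methyltransferase that places the H3K36 trimethyl mark. KO1 and KO2 are clones with CRISPR frameshift mutations in SETD2 exon 3. Rescue1 and Rescue2 are single-colony clones of KO2 cells that received full-length SETD2 with a FLAG tag from a lentivirus under blasticidin selection. Each KO and rescue line is 1 clone, so effects of SETD2 cannot be told apart from differences between clones, and no source says that libraries of a line came from separate cultures, so p-values measure the spread between these libraries. KO denotes the 6 libraries of KO1 and KO2, and rescue the 6 libraries of Rescue1 and Rescue2.

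POU factors of class 2 (Oct-1, Oct-2 and Skn-1a, encoded by POU2F1, POU2F2 and POU2F3) are the classical readers of the octamer. Oct-1 is made in most tissues and helps to transcribe histone H2B and small nuclear RNA genes, Oct-2 is best known from B lymphocytes and neurons, and POU2F3 marks tuft cells and epidermis. Class 3 factors (POU3F1, POU3F2 and POU3F3) act in the developing nervous system, and POU3F3 also in nephron development. POU4F1 specifies sensory neurons, POU5F1 (Oct-4) maintains pluripotent cells together with SOX2, and POU6F1 is a brain-enriched factor. Nearly all of these factors can bind the same 8 letters in vitro, so the sequence alone does not name the factor.

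By GENCODE, POU2F1 lies at chr1:167220876-167427345 (plus strand), POU2F2 at chr19:42086110-42196585 (minus), POU2F3 at chr11:120236640-120319945 (plus), POU3F1 at chr1:38043829-38046793 (minus) and POU3F2 at chr6:98834574-98839458 (plus). POU3F3 lies at chr2:104853287-104858574 (plus), POU4F1 at chr13:78598362-78603552 (minus), POU5F1 at chr6:31164337-31180731 (minus) and POU6F1 at chr12:51186936-51218062 (minus). Starts or bodies of other coding genes fall in the windows of POU2F1 (CD247), POU2F2 (ZNF574 and DEDD2), POU2F3 (OAF and TLCD5) and POU5F1 (CCHCR1 and TCF19).

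The lists hold called peaks and no read counts, so a locus without a peak is one below the calling threshold. The paper summarizes sequencing depth in its supplement, and depth was not used here. They held from 197527 to 266011 peaks per library, the most in Rescue2 replicate 1 and KO2 replicate 3. Merged over the libraries and kept where at least 2 libraries had a peak, they gave 295008 regions. Of the proximal tubule markers, PAX8, CDH6, KRT8, KRT18 and GGT1 had a peak at the start in every library, LRP2 and CDH1 in some, and CUBN and SLC34A1 in none. Starts of 5 of 5 B lymphocyte markers and 4 of 4 markers of pluripotent cells had no peak in any library, TRPM5 had one throughout as 1 of 4 tuft cell markers, and SYP and SNAP25 did as 2 of 4 neuron markers.

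Motif matches in the members' own regions and promoters are given first, with some of the promoter sequences. Of the 129 merged regions at the 9 loci, 1 held the octamer, and it was neither gained nor lost in either comparison. Promoters were taken from RefSeq for the members in its table and searched on both strands for ATGCAAAT, for its relative ATGCTAAT and for the homeodomain-type sequence TAATTAAT. Of all 35116 RefSeq promoters, 1.77% held ATGCAAAT, 0.649% ATGCTAAT and 0.712% TAATTAAT. Promoter entries were found for 7 members (not POU2F3 and POU5F1), and 2 of these members had a promoter with a match. That count is per gene, over all its entries and all 3 motifs. The shares above are per entry and per motif, so the 2 cannot be set side by side. The internal promoter of POU2F1 at chr1:167328820-167329119 (plus strand) held the octamer in reverse complement, and the POU6F1 promoter at chr12:51217256-51217555 (minus strand) held ATGCTAAT in reverse complement. They are printed 5′ to 3′ on the strand of the gene, as the longest stretch before the RefSeq start that holds no annotated exon, with the match in capitals. The POU2F2 and POU3F3 promoters, whose peaks are described in detail, held none of the 3 motifs and are in lower case throughout.

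POU2F1 internal promoter, chr1:167328820-167329043: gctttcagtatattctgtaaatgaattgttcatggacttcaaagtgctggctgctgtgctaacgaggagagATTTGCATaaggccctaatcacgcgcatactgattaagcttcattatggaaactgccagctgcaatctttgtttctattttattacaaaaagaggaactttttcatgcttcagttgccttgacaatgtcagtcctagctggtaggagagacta

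POU6F1 promoter, chr12:51217306-51217555: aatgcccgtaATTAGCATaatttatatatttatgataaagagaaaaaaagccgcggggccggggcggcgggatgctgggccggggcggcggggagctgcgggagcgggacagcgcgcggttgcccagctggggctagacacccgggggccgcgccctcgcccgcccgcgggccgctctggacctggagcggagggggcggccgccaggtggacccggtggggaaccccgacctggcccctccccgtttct

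POU2F2 promoter, chr19:42132479-42132554, minus strand: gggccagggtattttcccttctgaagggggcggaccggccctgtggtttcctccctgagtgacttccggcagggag

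POU3F3 promoter, chr2:104853865-104854114, plus strand: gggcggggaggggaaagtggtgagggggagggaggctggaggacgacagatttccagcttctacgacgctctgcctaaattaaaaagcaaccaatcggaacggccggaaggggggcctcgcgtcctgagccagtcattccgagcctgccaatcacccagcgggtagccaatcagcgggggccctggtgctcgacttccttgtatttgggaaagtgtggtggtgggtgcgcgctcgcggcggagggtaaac

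The internal POU2F1 start beside that octamer had a peak only in WT replicate 2, 78 bp wide. The POU6F1 start region that holds ATGCTAAT, at chr12:51217120-51218614, had a peak in 15 of 15 libraries. TAATTAAT occurred in 1 region, in the flank of POU3F3 at chr2:104862027-104862783, which also had a peak in all 15 libraries.

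Of the 9 members, 6 had a peak at the canonical start in every library: POU2F1, POU2F2, POU3F1, POU3F2, POU3F3 and POU6F1. POU2F3 had one in 5 of 15 libraries, and POU4F1 and POU5F1 had none at any coding start in any library. Among all protein-coding genes, 66.2% had a start peak in every library and 23.4% in none. To place the starts on a common scale, the strongest peak within 500 bp of the canonical start was ranked by fold enrichment within its own library, giving a promoter percentile from 0 (no peak) to 100.

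**Figure D1:**
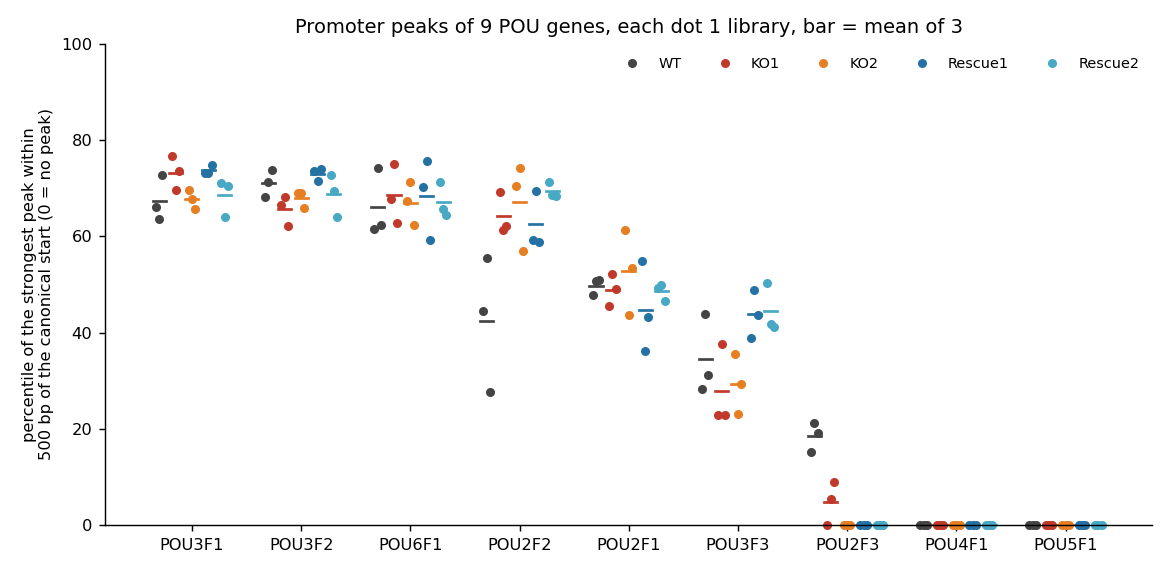
Promoter peak percentile (y axis, percent of the library's own peaks) of each POU gene in each library, by group, with 1 point per library and a bar at the mean of 3. POU3F1, POU3F2 and POU6F1 lie between 59.3 and 76.6 in all libraries, POU2F2 is lower in WT (27.6 to 55.4) than elsewhere (57.0 to 74.1), and POU4F1 and POU5F1 are at 0.

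By the mean over 15 libraries, the order of the promoter percentile was POU3F1 (70.2, range 63.5 to 76.6), POU3F2 (69.3, 62.3 to 74.0), POU6F1 (67.4, 59.3 to 75.6), POU2F2 (61.2, 27.6 to 74.1), POU2F1 (49.0, 36.2 to 61.3), POU3F3 (36.0, 22.9 to 50.3), POU2F3 (4.65, 0 to 21.2), and then POU4F1 and POU5F1 at 0. Of neighbours in this order, only POU3F3 and POU2F3 did not overlap in their ranges. Among all genes, POU3F1, the highest member, ranked above 57.8%. On the other measure, bases under peaks per kb of locus, the order was different. POU3F3 had 127.8 bases per kb, more than 99.2% of genes, and POU2F1 had 17.9, more than 24.0%. Short genes such as the intronless POU3F genes leave most of the locus to the flanks, where starts of non-coding genes such as PANTR1 lie.

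At POU2F2, the start ranked higher in every KO library than in any WT library, a difference that did not pass adjustment over all genes. The promoter percentile at its canonical start, at position 42132446 of chromosome 19, was 44.4, 55.4 and 27.6 in the WT libraries. It was 69.2, 61.3 and 62.1 in KO1, and 70.4, 74.1 and 57.0 in KO2. The mean was 42.5 ± 14.01 (SD, n = 3) in WT and 65.7 ± 6.53 (n = 6) in KO, a difference of 23.2 (exact permutation p = 0.0238, the smallest these 9 libraries allow; adjusted p = 0.171 over 15356 genes). The values were 59.2, 69.4 and 58.8 in Rescue1 and 71.2, 68.6 and 68.5 in Rescue2. The rescue libraries lay within the KO range, with a mean of 65.9 ± 5.49 (n = 6) and a difference from KO of 0.273 (exact permutation p = 0.955, adjusted p = 1).

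The width of that peak parted the same libraries. The strongest peak at the POU2F2 start was 179, 190 and 158 bp wide in WT, 391 to 527 bp in KO and 348 to 594 bp in rescue. The WT peaks therefore covered a shorter stretch around the start. The locus has another coding start at −44879 bp, upstream at position 42177325, and its peak was among the strongest of each library, with a percentile between 91.6 and 97.8 in all 15. A strong start peak at POU2F2 was thus present in WT, KO and rescue libraries alike, and the difference was at the downstream start. A neighbouring region present in all libraries (chr19:42132868-42133507) begins inside the 500 bp window. In some libraries, among them WT replicates 2 and 3 and KO1 replicate 3, only 1 peak lay within that window. With a window of 1000 bp the difference was −0.665.

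**Figure D2:**
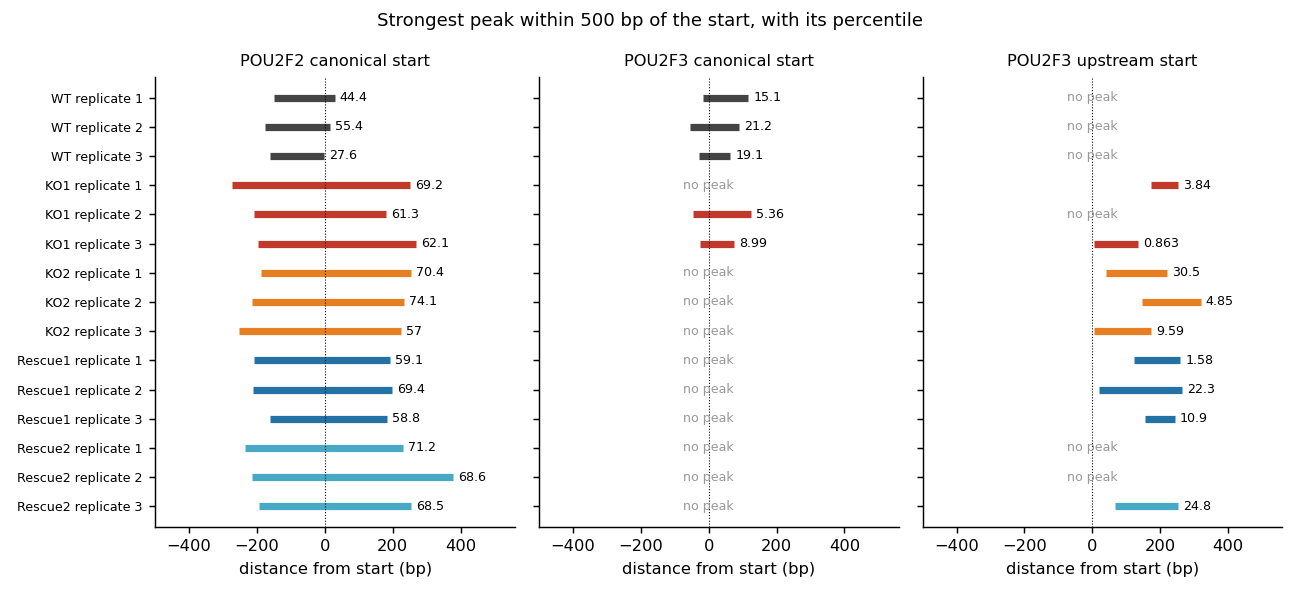
Extent of the strongest peak at the POU2F2 canonical start and at 2 starts of POU2F3 (x axis, distance from the start in bp, 1 line per library, with the promoter percentile beside it). WT peaks at POU2F2 are 158 to 190 bp wide and those of the other libraries 348 to 594 bp.

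POU2F3, the tuft cell factor, had weak peaks at different starts in different groups. At the canonical start (position 120240140 of chromosome 11) the percentile was 15.1, 21.2 and 19.1 in WT, 0, 5.36 and 8.99 in KO1, and 0 in every KO2, Rescue1 and Rescue2 library. WT lay above KO without overlap, with a difference of −16.1 (exact permutation p = 0.0238, adjusted p = 0.171). At the upstream start, at −3500 bp, no WT library had a peak, whereas 2 of 3 KO1, 3 of 3 KO2, 3 of 3 Rescue1 and 1 of 3 Rescue2 libraries did. These peaks were low in their lists, with percentiles up to 30.5.

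Of the 7 members tested, 1 was higher and 1 lower in KO without overlap, against 7.48% of the 15356 genes tested higher and 6.44% lower. Regardless of overlap, 4 members were higher and 3 lower, with a median difference of 1.06 against 0.378 over all genes. No gene could pass an adjusted p of 0.05 by this exact permutation test, since the smallest p these libraries allow gave 0.171, although 2979 genes had an unadjusted p under 0.05.

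In rescue against KO, POU3F3 passed the test. Its promoter percentile was 22.9, 37.7 and 22.9 in KO1, 35.5, 23.1 and 29.4 in KO2, 38.9, 48.9 and 43.7 in Rescue1 and 50.3, 41.7 and 41.3 in Rescue2. Every rescue library was above every KO library, and the WT values of 28.2, 43.9 and 31.1 overlapped both. The mean rose from 28.6 ± 6.72 to 44.1 ± 4.54 (n = 6 each), by 15.6 (exact permutation p = 0.002165, the smallest these 12 libraries allow; adjusted p = 0.0298). Ranked by −log10 q in place of fold enrichment, the difference was −4.18 (exact permutation test, adjusted p = 0.384), so the rise depends on the ranking. Among all genes tested, 1.87% were higher and 5.41% lower in rescue without overlap, and 1580 passed the adjusted threshold, with a median difference of −1.89.

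The other members with a start peak gave values close to each other. POU3F2, a neural factor, had a difference of −4.31 in KO against WT and of 4.10 in rescue against KO (exact permutation p = 0.0541, adjusted p = 0.175). For POU2F1, the broadly made octamer reader, the mean percentile was 49.8 in WT, 48.9 in KO1, 52.8 in KO2, 44.8 in Rescue1 and 48.5 in Rescue2. POU3F1 and POU6F1 had group means between 66.1 and 73.8. At POU6F1 the ranges of WT, KO and rescue overlapped. At POU3F1 they overlapped as well, although the 3 Rescue1 libraries (73.2 to 74.9) lay above those of WT (63.5 to 72.8), KO2 (65.6 to 69.7) and Rescue2 (64.1 to 71.2).

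Over the loci, peaks covered between 92 and 7621 bases per library. POU3F1 was the only member without overlap between WT and KO. Its bases under peaks were 1718, 1832 and 1847 in WT, 1469, 1554 and 1565 in KO1, and 1717, 1483 and 1700 in KO2. The WT mean was 1799 ± 70.6 (n = 3) and the KO mean 1581 ± 106 (n = 6), a difference of −217.7 (exact permutation p = 0.0238, adjusted p = 0.0999 over 19429 genes). The highest KO value lay 1 base under the lowest WT value, and for the gene body alone the difference was 20. Background for KO against WT was 12.6% of genes higher and 11.3% lower without overlap. No gene could reach an adjusted p under 0.05, since the smallest p gave 0.0999, although 6058 had an unadjusted p under 0.05.

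**Figure D3:**
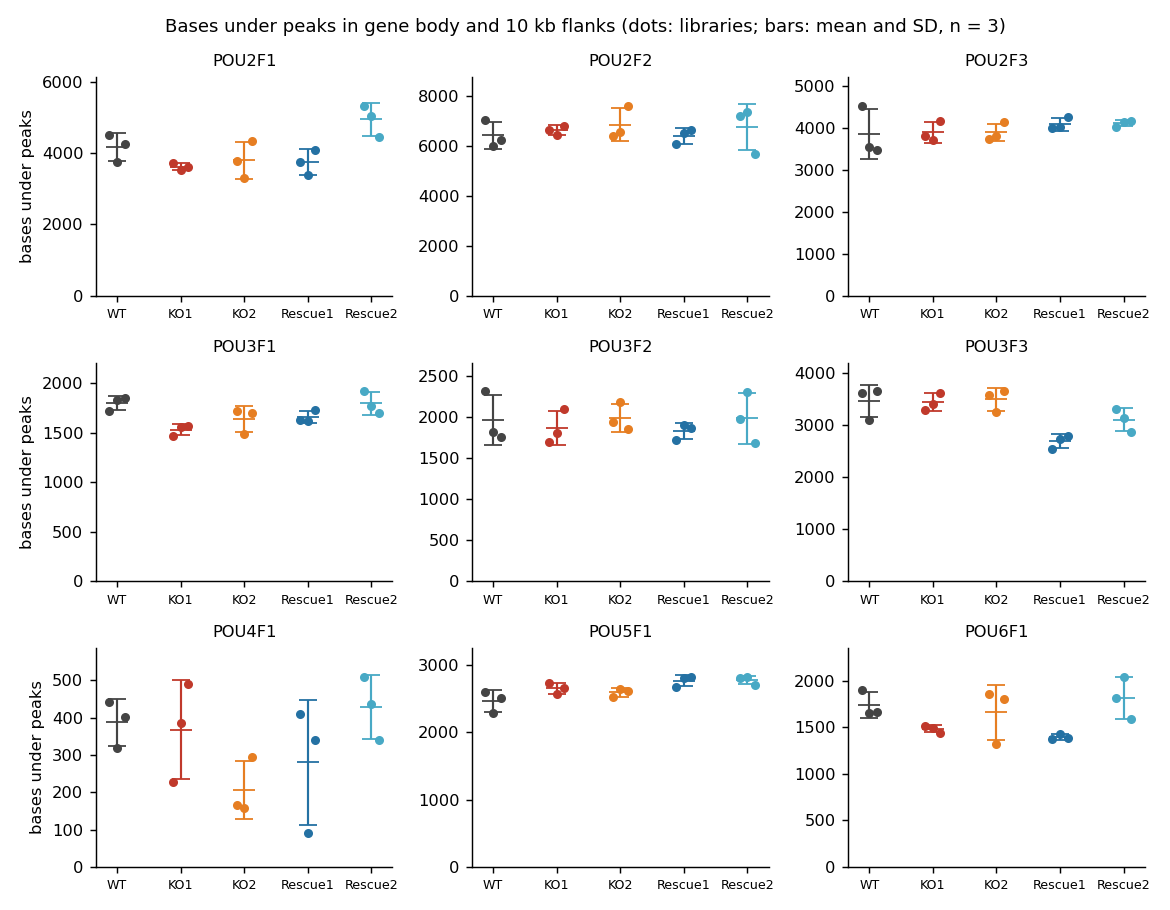
Bases under called peaks per locus (gene body and 10 kb on each side, y axis) in each library of the 5 groups, 1 panel per POU gene, with points for libraries and bars for mean and SD (n = 3). POU3F3 is lower in rescue (2530 to 3308) than in KO (3245 to 3647) with an overlap, and POU3F1 is lower in KO (1469 to 1717) than in WT (1718 to 1847).

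In rescue against KO, 2 members passed the test on bases. At POU3F3, KO libraries ranged from 3245 (median 3488.5) to 3647 and rescue libraries from 2530 (median 2827) to 3308. The groups overlapped, and the mean fell by 568.3 bases, from 3461 ± 176 to 2893 ± 281 (exact permutation p = 0.00649, adjusted p = 0.0329). The POU3F3 locus therefore had fewer bases under peaks while its start peak ranked higher. For the gene body alone the difference was −4.33, so the loss of bases lay in the flanks.

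At POU5F1, which had no start peak, KO libraries ranged from 2519 (median 2630) to 2729 and rescue libraries from 2671 (median 2806.5) to 2824. The groups overlapped, and the mean rose by 150.3 bases, from 2622 ± 72.2 to 2772 ± 66.6 (exact permutation p = 0.0108, adjusted p = 0.0455). Its locus includes the starts of CCHCR1 and TCF19. Without peaks at starts of other genes the difference was 75.2 (exact permutation test, adjusted p = 0.148), and for the gene body alone it was −107.7 (adjusted p = 0.0527). POU5F1 also has near-identical pseudogene copies, and whether reads were split between them was not tested. Of the 11 regions at its locus, 3 lay in introns, 8 in flanks and 0 in exons.

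Leaving out 1 library in turn lost the POU3F3 call on bases in 7 of 12 cases (adjusted p from 0.0317 to 0.0624), the POU5F1 call in 9 of 12 (0.0316 to 0.0850) and the POU3F3 start call in 5 of 12 (0.0463 to 0.0544). The POU3F3 call on bases went without KO1 replicates 2 and 3, KO2 replicate 1, each Rescue1 replicate or Rescue2 replicate 2, and its start call without KO1 replicates 1 and 2, Rescue1 replicates 2 and 3 or Rescue2 replicate 2. The POU5F1 call went without KO1 replicates 2 and 3, each KO2 replicate, Rescue1 replicates 2 and 3 or Rescue2 replicates 1 and 2. In each of the 5 cases at the POU3F3 start the groups still did not overlap, with differences of 14.3 to 17.4 over all 12 cases, and no gene could pass, since p was the smallest that 11 libraries allow. With KO1 or KO2 alone as the knockout, no gene could pass adjustment. The differences were then −541 and −595.7 bases at POU3F3, 121.3 and 179.3 bases at POU5F1, and 16.3 and 14.8 percentile points at the POU3F3 start. POU3F2 became called at its start without Rescue2 replicate 3 (5.47, adjusted p = 0.0479, exact permutation test).

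Rescue against KO over all genes gave 10.1% higher and 2.75% lower without overlap, with 4618 genes past the adjusted threshold and a median difference of 133 bases, against 67.8 for the members. No member was without overlap between rescue and KO. POU2F1 had 3293 to 4337 bases in KO and 3391 to 5339 in rescue, the 3 highest of these in Rescue2 (5339, 5061 and 4450). Rescue2 replicate 1 also has the longest peak list, and the part of this in the result was not tested. POU2F2 had 6389 to 7621 in KO, with 5996, 6239 and 7038 in WT. The loci of POU2F3 (3491 to 4542 bases), POU3F2, POU4F1 (92 to 510) and POU6F1 overlapped between groups in both comparisons.

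Of the 129 merged regions at the loci, 49 (38.0%) had a peak in all 15 libraries, against 35.6% of all merged regions. Those 49 were wider, with a median of 553 bp against 179 bp for the other 80. The regions comprised 14 at starts of the genes, 8 in exons, 55 in introns and 52 in flanks, and 15 of them lay at the start of another gene. POU2F2 had the most regions, 34, of which 15 were in all libraries, followed by POU2F1 with 24 (6 in all) and POU2F3 with 22 (10). POU3F3 and POU5F1 had 11 each (7 and 4), POU3F1 and POU6F1 8 each (3 and 1), POU3F2 7 (2) and POU4F1 4 (1).

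**Figure D4:**
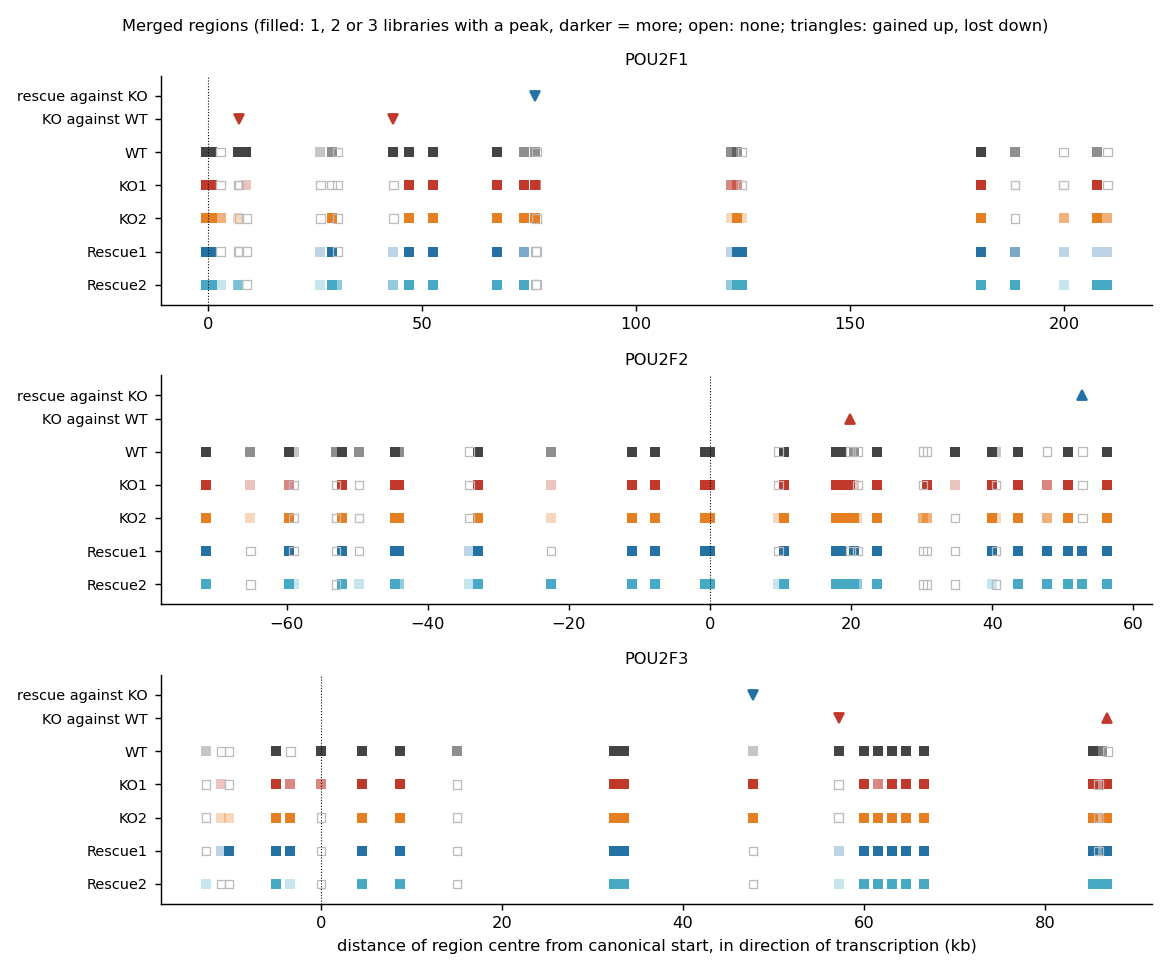
Merged regions of POU2F1, POU2F2 and POU2F3 by distance from the canonical start (x axis, kb), with 1 row per group, filled squares darker with more of the 3 libraries holding a peak, open squares for none, and triangles up for gained and down for lost. POU2F2 has 1 region gained in KO and 1 gained in rescue, POU2F1 has 2 lost in KO and 1 lost in rescue, and POU2F3 has 1 gained and 1 lost in KO and 1 lost in rescue.

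A gained region had a peak in all libraries of the first group and none of the second, and a lost region the reverse. In KO against WT, 2 regions at the loci (1.55%) were gained and 4 (3.10%) lost, against 4.79% gained and 2.48% lost among all regions. In rescue against KO, 1 (0.775%) was gained and 3 (2.33%) lost, against 0.91% and 1.24%. By Fisher's exact test over all regions none of these passed adjustment, and the lowest adjusted p was 0.164 in KO against WT and 0.101 in rescue against KO, with 31882 and 15605 regions at an unadjusted p under 0.05.

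Both regions gained in KO lie at loci of class 2 genes, which hold most of the 129 regions (34 at POU2F2, 24 at POU2F1 and 22 at POU2F3). Neither holds the octamer, which only 1 of the 129 regions does. One lies in an intron of POU2F2 and had a peak in 3 of 3 KO1, 3 of 3 KO2 and 3 of 3 Rescue2 libraries, but in no WT or Rescue1 library. The other lies in the flank beyond the end of POU2F3, at chr11:120326781-120327254, and had a peak in 0 of 3 WT libraries and in 3 of 3 of each other group. The start of TLCD5, in the region chr11:120324992-120325838, lies between POU2F3 and this region, so which gene it serves is not known. The POU2F3 region is printed as its central 300 bp, in lower case since it holds none of the 3 motifs.

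POU2F3 gained region, chr11:120326800-120327099, plus strand: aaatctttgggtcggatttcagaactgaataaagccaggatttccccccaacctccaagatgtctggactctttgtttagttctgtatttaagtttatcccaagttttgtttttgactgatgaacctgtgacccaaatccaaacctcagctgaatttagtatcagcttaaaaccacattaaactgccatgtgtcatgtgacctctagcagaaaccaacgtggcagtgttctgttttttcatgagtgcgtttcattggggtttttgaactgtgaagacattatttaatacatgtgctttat

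Another region of POU2F3 was lost in KO. It lies in an intron at chr11:120297252-120297449 and had a peak in 3 of 3 WT libraries, in no KO library, and in 1 of 3 of each rescue clone.

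POU2F3 lost region, plus strand: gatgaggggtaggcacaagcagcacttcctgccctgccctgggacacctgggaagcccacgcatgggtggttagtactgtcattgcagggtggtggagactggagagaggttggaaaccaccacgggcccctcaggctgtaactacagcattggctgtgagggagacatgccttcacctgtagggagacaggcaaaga

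The other losses in KO were 2 intronic regions of POU2F1, at chr1:167228124-167228286 and chr1:167264171-167264363, and the flank of POU6F1 at chr12:51181649-51181940. In rescue against KO, the flank of POU2F2 at chr19:42079613-42079749 was gained. Introns of POU2F1 at chr1:167297320-167297487 and of POU2F3 at chr11:120287784-120288007 and the flank of POU5F1 at chr6:31164057-31164254 were lost. Each of these 3 had a peak in 6 of 6 KO libraries and in no rescue library.

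Across the genome, 2.04% of the 295008 regions held the octamer. Of the 14118 regions gained in KO, 535 (3.79%) did, and of the 7308 lost in KO 71 (0.972%) did. Of the 2413 gained regions that were lost again in rescue, 130 (5.39%) held it, compared with 195 (3.09%) of the 6316 gained in KO and kept in all rescue libraries. Gained regions were wider (median 296 bp against 244), and within the central 200 bp the shares were 1.39% of all, 2.71% of gained, 4.35% of those lost again in rescue, and 0.944% of lost regions. The 139580 regions that all 6 KO libraries shared, which were wider still (median 414 bp), held it in 2.92%, or 1.47% in the central 200 bp. The related ATGCTAAT was found in 1.29% of gained and 0.887% of all regions, and TAATTAAT in 0.807% and 0.803%. The median GC content of the central 200 bp was 47.5% in all regions and 47.5% in lost regions. It was 45% in gained regions and 44% in those lost again in rescue, and its part in the shares was not tested. These shares are descriptions with no test.

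**Figure D5:**
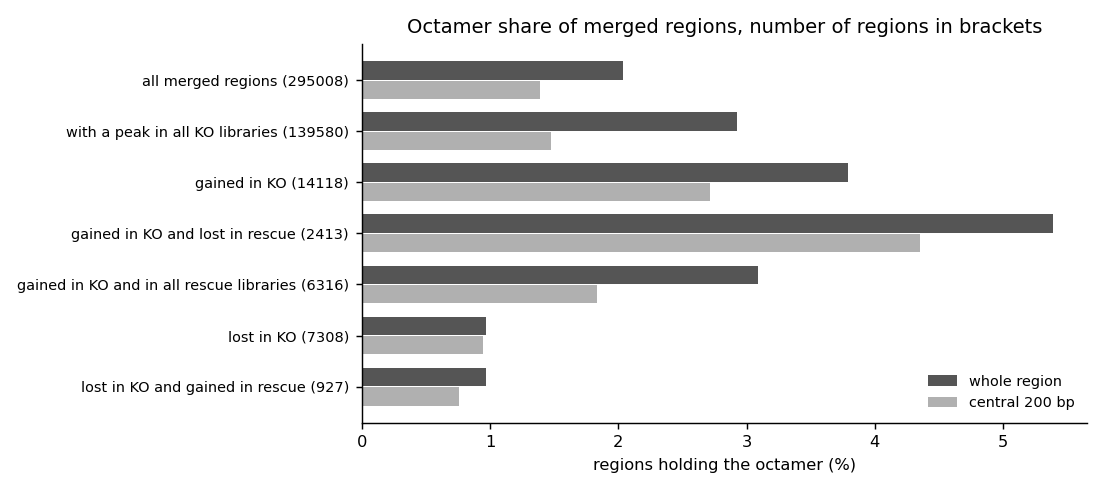
Share of merged regions that hold ATGCAAAT (x axis, percent) in sets of regions, for the whole region and for its central 200 bp. The share is 2.04% of all regions, 3.79% of those gained in KO, 5.39% of the gained regions lost again in rescue, and 0.972% of those lost in KO.

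Coactivators and partners of POU factors were described by a list of 14 genes, all of them named with earlier results known. Promoter peaks in every library were found at 10 of 14, including SOX2, the partner of POU5F1, and JUN. The octamer coactivator POU2AF1 (OCA-B), which joins Oct-1 and Oct-2 on the octamer, had low values in WT. Its start percentile was 11.1, 18.4 and 0 in WT, 74.9 to 89.8 (median 84.5) in KO, and 76.9 to 90.5 (median 87.1) in rescue. WT lay far below both other groups, and the difference between KO and WT was 74.0 (exact permutation p = 0.0238, adjusted p = 0.171). Bases under peaks at its locus were 4536, 4350 and 3980 in WT, 6438 to 7442 in KO and 5391 to 7002 in rescue, again without overlap between WT and KO. Rescue and KO libraries overlapped at the start, with a difference of 1.70 (exact permutation test, adjusted p = 0.740).

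POU2AF3, a coactivator of POU2F3, had another course. Its locus had 366 to 496 bases in WT, 926 to 1134 (median 1083.5) in KO and 368 to 619 (median 457.5) in rescue. It fell by 579.7 in rescue without overlap (exact permutation p = 0.002165, adjusted p = 0.0169). Most of the difference between KO and WT lay in peaks that reach the start of another gene. Without such peaks it was 34.7, in place of 622.8, and the difference between rescue and KO was −215. Peaks that reach the start of POU2AF3 as well were also dropped there. The percentile at its own start was 0 in every WT and rescue library, 0, 0 and 6.66 in KO1, and 78.7, 81.3 and 10.6 in KO2. However, the merged region chr11:111298865-111299938, which begins inside the 500 bp window, had a peak in 3 of 3 libraries of every group. A percentile of 0 here means that no peak reached the window, not that none lay beside it. With KO1 alone the rescue difference was −534.5 and with KO2 alone −624.8, both without overlap. SNAPC2, a subunit of the complex that Oct-1 helps to recruit to small nuclear RNA genes, rose by 509.0 in rescue (adjusted p = 0.0257, exact permutation test). Its locus had 2495 to 2894 bases in WT, 1753 to 2200 in KO and 2084 to 2877 in rescue. WT lay above KO without overlap, with a difference of −786.7 (exact permutation test, adjusted p = 0.0999). Most of the rise in rescue lay outside the gene body, for which the difference was 31.3. At starts, JUN was the partner that rose in rescue, by 13.8 (exact permutation test, adjusted p = 0.0298), from 28.2 to 35.1 in KO to 39.5 to 49.6, with 11.2 to 21.98 in WT. Leaving out 1 library lost the JUN call in 5 of 12 cases, the same libraries as for the POU3F3 start, with differences of 12.8 to 14.9. SOX2 was lower in KO (72.0 to 77.2) than in WT (82.8 to 87.8) without overlap, with an adjusted p of 0.171 by the exact permutation test. On bases, 4 of the 13 tested partners were higher and 9 lower in KO, with none past the adjusted threshold, and 7 were higher and 6 lower in rescue against KO, with 2 past it, against 4618 of all 19429 genes. At starts, 5 of the 12 tested were higher and 7 lower in KO, with none past it, and 6 were higher and 6 lower in rescue against KO, with 1 past it, against 1580 of all 15356 genes.

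Of the POU genes outside the members, POU1F1, POU4F3 and POU5F2 had no start peak in any library, and POU3F4 and POU4F2 had one in some. POU5F2 had bases only in the 6 rescue libraries (84 to 307). POU3F4 had none in WT, 256 to 1093 in KO and 159 to 613 in rescue (KO against WT, exact permutation test, adjusted p = 0.0999). Among all genes, 12.6% were higher in KO than in WT without overlap, and 10.1% higher in rescue than in KO.

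Bases under peaks at POU2F2 followed those of JARID2, a chromatin regulator (Spearman rho 0.914 over 15 libraries), TMEM123 (0.914) and KDSR (0.911) most closely among 15571 genes. The libraries share their lines and list sizes, and rho with the number of peaks per library was 0.536.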

How the data were processed

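ATAC-seq libraries of RPTEC cells (5 groups of 3) had been aligned by the authors with BWA to hg38 (0.7.17 in the submitters' processing notes), and peaks called per library, without pooling, with MACS2 2.2.7.1. The study tested its differential peaks with DiffBind 2.14.0. Duplicate and multi-mapping read handling is not given in the sources used here. Each deposited list gives the positions of peaks, a score, the fold enrichment over local background as a ratio, the −log10 p and the −log10 q. Fold enrichment and −log10 q served only to rank peaks within a list. Read depth is not in the lists, so precision is limited by the number of libraries and the calling threshold.

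Peaks sharing at least 1 bp were merged, and regions with at least 2 libraries were kept. Bases under peaks and promoter percentiles were compared by exact permutation of library labels, two-sided, over all genes with Benjamini-Hochberg adjustment. Regions were called by all-or-none occupancy with Fisher's exact test. Alternatives covered peak thresholds, windows, single clones, libraries left out and a replicate block. The permutation test and the region calls were tested on simulated data. Members and lists were chosen with earlier results of these data known. The rule for named items was all 9 members, their regions gained or lost, over a start or with the octamer, and the 3 genes most like POU2F2. The other genes named from the 2 lists were chosen after their values were seen. Some listed genes, regions and sequences under this rule are not reported here. Python 3.11.15, numpy 2.4.6, pandas 2.3.3 and scipy 1.17.1 were used.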

Additional observations from a re-analysis of the deposited data

Results flagged for a closer look

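At POU2F2, KO2 replicate 3 had 7621 bases under peaks, far above the other 5 KO libraries (6389 to 6820). The gap to the nearest library was 0.650 of the whole range, past the limit for 6 values. Of 31 groups of 6 libraries examined, this 1 passed, and chance alone passes about 1 group in 20. KO2 replicate 3 also has the longest list among the KO libraries, with 255339 peaks, and the part of this in the result was not tested.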

How the results depend on the processing

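On bases under peaks and on promoter percentile, KO against WT had 0 members past the threshold in every alternative run, which says nothing on stability, since no gene could pass in the comparison as reported. For rescue against KO on bases, 2 members passed, compared with 1 at −log10 q of at least 3, 0 with the 150000 strongest peaks per library (an equal list size), 0 for the gene body only, 1 without peaks at other genes' starts, 0 with KO1 alone, 0 with KO2 alone, and 0 to 2 when 1 library was left out. For the promoter percentile 1 member passed, compared with 0 ranked by −log10 q, 0 with KO1 alone, 0 with KO2 alone, and 0 to 2 when 1 library was left out.

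With a replicate block 0 members passed on bases and 0 on the promoter percentile in rescue against KO. Same-numbered libraries did not deviate together (correlations of −0.199 to 0.0554, 0 of 30 over 0.1), so the numbers were not taken as pairing, and 7 of 15 libraries correlated best with their own number.

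With a single KO clone or the replicate block, the smallest p the libraries allow did not pass adjustment, so those 0 counts say nothing on stability.

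Regions gained in KO numbered 2, compared with 5 where 0.5 of a region or more had to lie under a peak, 10 by majority of libraries, and 2 to 3 when 1 library was left out. Regions lost in KO numbered 4, compared with 2 at an equal list size, 18 by majority, 8 with KO2 alone, and 4 to 7 when 1 library was left out, with 7 reached without WT replicate 2. Regions gained in rescue numbered 1, compared with 0 at an equal list size, 5 by majority, 3 with KO1 alone and 1 to 2 when 1 library was left out. Regions lost in rescue numbered 3, compared with 1 at an equal list size, 6 by majority, and 3 to 4 when 1 library was left out.

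Directions turned for SNAPC2 bases in KO against WT (47.2 for the gene body only), POU3F1 bases in KO against WT (20 for the gene body only) and in rescue against KO (−10.3 at an equal list size), POU5F1 bases (−107.7 for the gene body only), JUN bases (−275.8 for the gene body only), POU2F2 start percentile in KO against WT (−0.665 within 1000 bp, −0.113 over all coding starts) and POU3F3 start percentile (−4.18 ranked by −log10 q). A turn counted only where a p under 0.05 was involved, and among all values 74 changed sign and 692 did not. The promoter percentile at an equal list size was added after seeing the data. The cause was not tested. Calling at a threshold, depth that was not taken into account and 1 clone per line limit all of these values.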
